A study of Mus musculus with 2 samples.

Results

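Collagens, laminins, nidogens, fibulins and a set of further matrix genes were followed across 2 sections of mouse brain assayed with 10x Visium, in which RNA from a tissue section is captured on an array of barcoded spots and counted as unique molecular identifiers (UMIs). The genes were chosen by symbol (collagen alpha chains, laminin alpha, beta and gamma chains, fibulins, Nid1 and Nid2, and Dcn, Lum, Ogn, Fmod, Bgn, Mgp, Sparc, Fn1, Vtn and Postn) with at least 50 UMIs over both sections. Of 71 symbols that matched, 66 passed, out of 32285 genes in the tables: 39 collagens, 11 laminins, 4 fibulins, 2 nidogens and 10 others. Just inside the minimum lay Col19a1 with 58 UMIs, Col6a5 with 61 and Col14a1 with 63, and just outside it lay Col6a6 with 41 and Col4a3 with 25. Both sections came from wildtype C57BL/6 mice (C57BL/6J in the design text) and carried the label ZT12. The tissue was fresh frozen brain cut at 10 µm. There was no treated or mutant group, and the comparisons were between kinds of spots within a section. The labels call the sections replicates and do not say whether they came from separate animals, so no p-value reaches beyond these 2 sections. Differences between the sections may be technical. In most fits the spread behind a p-value was estimated from all genes together and not from a gene's own values in the 2 sections.

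Section 1 held 3030 spots with at least 500 UMIs, with a median of 18127 UMIs per spot, and section 2 held 2531, with a median of 21555. The matrix genes together gave 89551 UMIs in section 1 and 67200 in section 2, or 0.153% and 0.12% of all UMIs. Sparc alone made up 46.9% of them, and Sparc, Vtn and Mgp together 63.4%. The sections shared 1965 spot barcodes, as arrays with 1 fixed set of barcodes do. Clusters of spots were not equally represented: 1 cluster led by Pcp2 and Car8, Purkinje cell genes of the cerebellum, and 1 led by Vxn and Fezf2 were found in section 1 alone.

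Collagens are trimers of alpha chains. Types I, III and V form fibrils, type IV forms the network of basement membranes together with laminin trimers, nidogens and perlecan, type VI forms beaded filaments, and type VIII forms short-chain networks. Decorin, biglycan, lumican, fibromodulin and osteoglycin (Dcn, Bgn, Lum, Fmod, Ogn) are small leucine-rich proteoglycans, several of which bind collagen fibrils. In brain, fibrillar matrix is largely restricted to the meninges and larger vessels, basement membranes surround vessels and underlie the pia, and some transmembrane collagens such as Col25a1 are made by neurons.

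Sequences just upstream of the annotated starts are shown for genes with large rises in the leptomeningeal or choroid plexus spots described below. Col25a1, a collagen that varied between neuronal regions, is shown as well. RefSeq's promoter table (GRCm38.p6, the assembly also called mm10, which the submitters' processing notes name) held 54 entries for 47 of the 66 genes. Each line gives the 100 bases before the start, 5′ to 3′ on the gene's strand, with capitals marking GGGCGG or its reverse complement CCGCCC, the GC box.
Ogn: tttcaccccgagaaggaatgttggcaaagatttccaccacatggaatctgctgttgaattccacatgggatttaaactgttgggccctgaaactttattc
Fmod: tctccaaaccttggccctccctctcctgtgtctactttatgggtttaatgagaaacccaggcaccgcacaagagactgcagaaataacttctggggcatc
Col3a1: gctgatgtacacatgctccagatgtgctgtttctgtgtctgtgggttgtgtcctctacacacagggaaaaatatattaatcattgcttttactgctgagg
Col1a2: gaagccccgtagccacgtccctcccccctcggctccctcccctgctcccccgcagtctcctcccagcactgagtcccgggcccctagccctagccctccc
Col8a1: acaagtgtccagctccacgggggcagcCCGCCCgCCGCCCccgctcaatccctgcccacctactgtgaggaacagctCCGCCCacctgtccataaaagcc
Col8a2: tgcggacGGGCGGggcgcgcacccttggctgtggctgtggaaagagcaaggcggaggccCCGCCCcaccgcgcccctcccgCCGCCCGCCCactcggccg
Col25a1: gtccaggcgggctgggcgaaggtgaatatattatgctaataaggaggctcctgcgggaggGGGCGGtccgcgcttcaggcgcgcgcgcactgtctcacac
On GRCm38.p6 these stretches lie at chr13:49607915-49608014 (plus strand) for Ogn, chr1:134037154-134037253 (plus) for Fmod and chr1:45311438-45311537 (plus) for Col3a1. That of Col1a2 is chr6:4505518-4505617 (plus), that of Col8a1 chr16:57754738-57754837 (minus), that of Col8a2 chr4:126286694-126286793 (plus) and that of Col25a1 chr3:130180745-130180844 (plus). Ogn, Fmod, Col3a1 and Col1a2 had 0 matches to GGGCGG on either strand, Col8a1 had 3, Col8a2 had 4 with overlapping matches counted, and Col25a1 had 1. Ogn, Fmod, Col3a1 and Col1a2 had their largest rise in leptomeningeal spots, and Col8a1 and Col8a2 theirs in choroid plexus spots. Whether the motif goes with a spot set was not tested on these few genes. Col8a1 and Col8a2 were called higher in leptomeningeal spots too (log2 fold change 1.58 and 2.43), and Ogn and Col1a2 in choroid plexus spots too. The motif was present in 24.7% of all 32851 stretches of this length in the table and in 24 of the 54 entries of the matrix genes (44.4%). CCAAT, on either strand, was present in 18.9% of all stretches and TATAAA in 5.56%, and neither was present in the 7 shown. These are matches of letters in a window and nothing about a factor was read from them.

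Leptomeningeal spots were taken as the top 5% of each section by 14 fibroblast markers that include no matrix gene of the set (Slc6a13, Slc22a6, Aldh1a2, Crabp2 and others), after choroid plexus spots had been set aside. This gave 148 and 124 spots with 3523158 and 2198082 UMIs, which were compared with 2821 and 2356 parenchymal spots. Of the 66 matrix genes, 43 were higher in leptomeningeal spots and 38 of these by at least 2-fold (edgeR's quasi-likelihood test, Benjamini-Hochberg adjusted p under 0.05 over all genes, same sign in both sections). None was lower by edgeR, by DESeq2 or at an unadjusted p under 0.05. Among all 16157 genes tested, 10.7% were called higher, 5.93% higher by at least 2-fold and 7.75% lower. The median log2 fold change was 1.42 over the matrix genes and -0.02 over all genes. By family, 22 of 39 collagens, 7 of 11 laminins, 4 of 4 fibulins, 1 of 2 nidogens and 9 of 10 others were called higher. A spot can hold several cells, and more cells of a type cannot be told apart here from more RNA per cell.

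The proteoglycans showed some of the largest differences. Ogn, osteoglycin, reached 153 CPM (the UMIs of a gene in a spot set, scaled to 1000000 UMIs of the set) in leptomeningeal spots of section 1 and 43.7 in section 2, against 6.3 and 3.51 in parenchymal spots. The lowest leptomeningeal value was far above the highest parenchymal one, and the log2 fold change was 4.24 ± 0.15 (SE, 2 sections, adjusted p = 6.84e-177 by edgeR). By section the log2 fold change was 4.60 and 3.63, further apart than this SE, which rested on a spread estimated from all genes. Fmod, fibromodulin, was at 270.5 and 80.5 CPM against 13.95 and 7.69 (log2 fold change 3.92 ± 0.13). Dcn was at 157 and 85.1 against 15.7 and 18.2 (2.83 ± 0.12), and its relative Bgn at 145 and 82.3 against 16.8 and 16.1 (2.78 ± 0.12). Lum was at 30.7 and 22.7 against 3.82 and 3.85 (2.81 ± 0.23). In each of these 5 called genes leptomeningeal and parenchymal values did not overlap, which adds no support beyond the calls. The share of all genes without overlap is not given, here or below. Section 1 gave the higher leptomeningeal level in each of the 5.

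Fibril-forming collagens followed. Col3a1, the type III chain of distensible tissues, was at 27.5 and 18.2 CPM in leptomeningeal spots against 2.03 and 1.69 in parenchyma (log2 fold change 3.61 ± 0.28, adjusted p = 3.05e-35 by edgeR). The 2 chains of type I collagen rose together: Col1a2 was at 178 and 96.4 against 15.9 and 11.5 (3.31 ± 0.12), and Col1a1 at 49.4 and 30.9 against 3.94 and 5.18 (3.17 ± 0.19). UMIs of Col1a1 stood to those of Col1a2 in the ratio 0.277 and 0.321 in leptomeningeal spots and 0.248 and 0.451 in parenchyma, so the ratio did not separate the spot sets. Col5a1 and Col5a2, chains of the type V collagen that sits inside type I fibrils, rose by less (1.32 ± 0.25 and 1.72 ± 0.34). Of the type VI chains, Col6a2 (2.11 ± 0.19), Col6a3 (1.66 ± 0.37) and Col6a1 (1.43 ± 0.17) were called higher. Col6a1 was at 29.8 and 27.3 CPM, against 7.36 in section 1 and 16.1 in section 2 of parenchyma, so its parenchymal level differed between the sections by more than its leptomeningeal one.

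Basement membrane genes rose to different degrees. Lamb2, the laminin beta 2 chain of pial and vascular laminins, was at 139 and 96.4 CPM in leptomeningeal spots against 32.4 and 29.7 (log2 fold change 1.92 ± 0.12). Lama1 was at 17.9 and 10.9 against 3.02 and 2.6 (2.36 ± 0.29) and Lama4 at 24.4 and 13.2 against 4.53 and 4.4 (2.08 ± 0.24). Lamc3, Lama2, Lamc1 and Lama5 were also called higher (1.97, 1.51, 1.27 and 0.82), and Lamb1 (0.43, adjusted p = 0.143 by edgeR), Lama3 and Lamb3 were among those that were not. Nid1, which links laminin to type IV collagen, was at 21.0 and 10.9 against 3.02 and 2.51 (2.52 ± 0.29), and Nid2 did not pass the test (1.14 ± 0.48). The main chains of vascular type IV collagen differed little between the sections: Col4a1 was at 29.5 and 31.4 against 13.7 and 13.5 (1.15 ± 0.16), and Col4a2 at 32.4 and 35.03 against 18.0 and 21.9 (0.77 ± 0.15). The genes for Col4a1 and Col4a2 lie head to head on chromosome 8, with RefSeq starts 21 bases apart at 11312826 and 11312805 (GRCm38.p6). Col4a6 and Col4a5, the type IV pair of other basement membranes, were called higher on few UMIs (2.35 ± 0.44 and 1.67 ± 0.48).

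Among the remaining glycoproteins, Mgp, matrix Gla protein and an inhibitor of calcification, was at 709 and 366 CPM against 62.9 and 54 in parenchyma (log2 fold change 3.14 ± 0.12). Vtn, vitronectin, was at 813 and 441 against 119 and 108 (2.41 ± 0.11), and Fn1, fibronectin, at 204 and 80.5 against 26.9 and 23.6 (2.43 ± 0.12). All 4 fibulins rose, from Fbln1 (2.77 ± 0.13) through Fbln5 (2.18 ± 0.23) and Fbln7 (2.11 ± 0.40) to Fbln2 (1.24 ± 0.24). Sparc, an acidic collagen-binding protein and by far the most counted gene of the set, was at 857 and 702 against 722 and 547, a difference of 0.30 ± 0.11 (adjusted p = 0.0361 by edgeR). Its leptomeningeal level in section 2 lay below its parenchymal level in section 1.

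Other measures of the leptomeningeal set moved with these values. In 39 of the 43 genes called, the rise was larger in section 1, where the markers that chose the spots also differed more from parenchyma (17.3-fold, against 11.5-fold in section 2). Summed levels of other cells' markers were higher as well: arterial smooth muscle markers by 5.89-fold and 4.22-fold, with 10 of 10 called, perivascular macrophage markers by 10.3-fold and 7.05-fold, with 7 of 7 called, red blood cell genes by 9.79-fold and 8.46-fold, and endothelial markers by 1.85-fold and 1.67-fold. Neuronal markers were at 0.618 and 0.829 of their parenchymal level. The part of these other cells in the matrix values was not tested. In each section 48 spots scored within 10% of the limit of the set, so it is a range rather than a type of spot. Of its spots, 105 and 55 lay in 1 cluster led by Myoc. In a comparison added after the data were seen, leptomeningeal spots were compared only with parenchymal spots of their own cluster. The Myoc cluster was left out of it, since it held fewer parenchymal than leptomeningeal spots, which left 43 and 69 leptomeningeal spots. Of the 40 matrix genes then tested 14 were called higher by edgeR, where 1.71% of all 12003 genes were, among them Fmod (2.57), Ogn (2.49), Mgp (2.03), Col3a1 (2.01), Col1a2 (1.88), Col1a1 (1.83), Vtn (1.43) and Lamb2 (1.35). In the comparison with all parenchymal spots, 24 matrix genes were called without section as a block, and the share of all genes at that setting is not given.

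**Figure D1:**
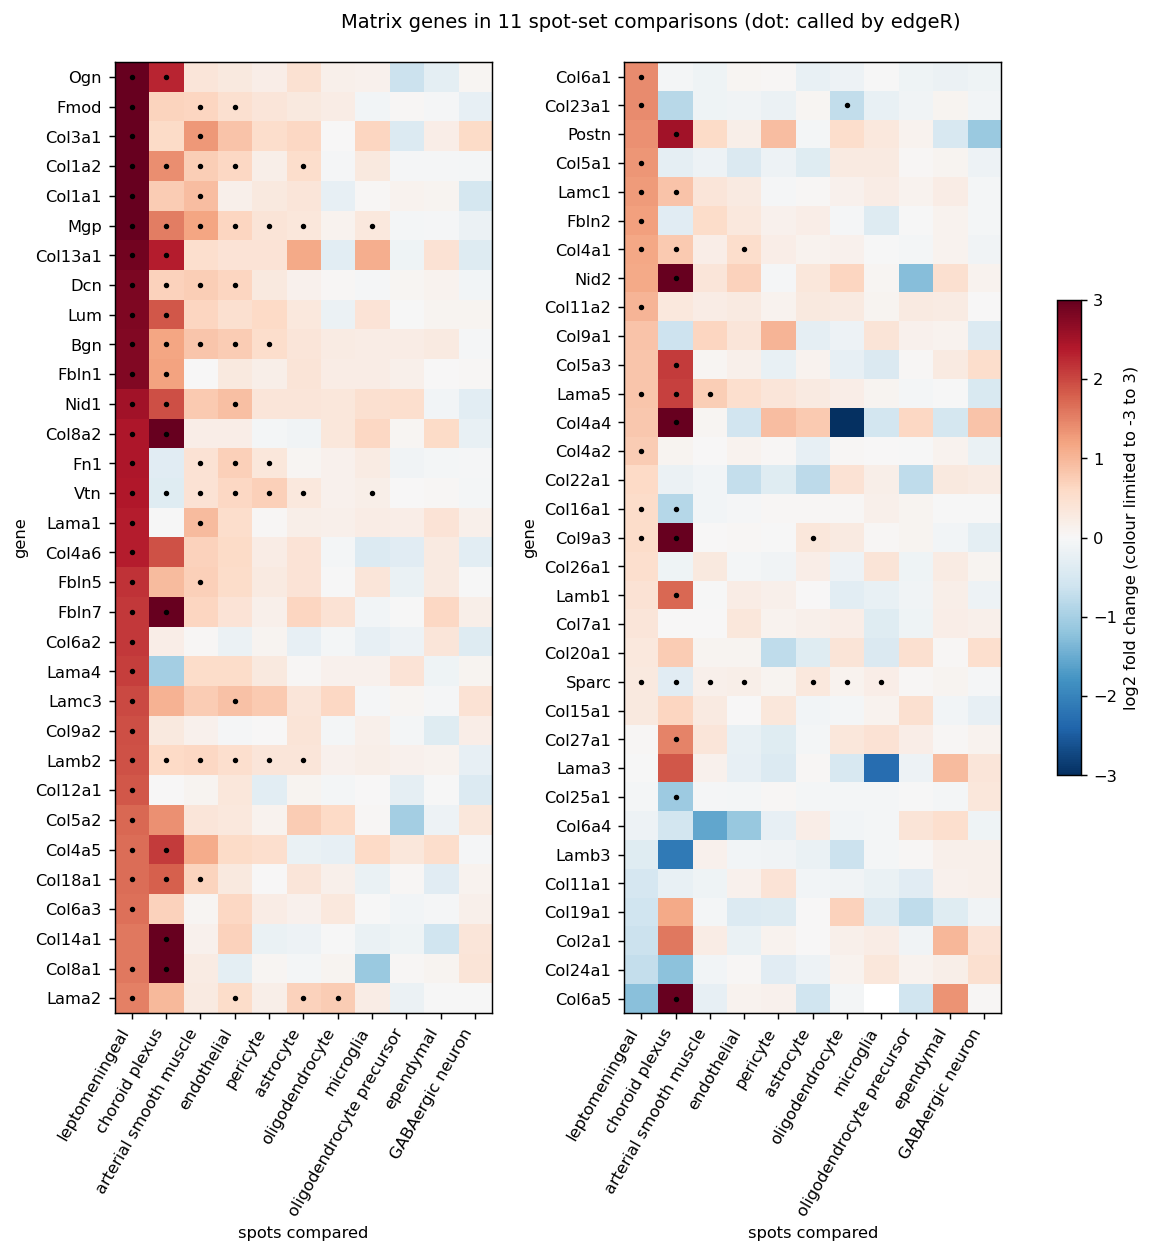
Log2 fold change of 65 of the matrix genes (rows, ordered by the leptomeningeal value) in 11 spot-set comparisons (columns), each against parenchymal spots, with colour limited to -3 to 3 and a dot where the gene was called by edgeR. Most dots lie in the leptomeningeal and choroid plexus columns (43 and 31), the vascular columns hold 5 to 15, and the columns for oligodendrocyte precursor, ependymal and GABAergic neuron markers hold 0. The blank cell is Col6a5 in microglia-marker spots, which did not pass the filter on low counts.

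Genes that act on matrix were read from 4 lists. Of other basement membrane and fibre genes, 22 of 26 were higher in leptomeningeal spots, led by Omd (4.04), a relative of Ogn, Mfap5 (3.42), a microfibril protein, and Efemp1 (2.95), a fibulin relative. Of collagen processing genes 10 of 22 were higher, led by the cross-linking enzymes Lox (3.48) and Loxl1 (2.34) and the procollagen proteinase enhancer Pcolce (2.87). Of matrix receptors 14 of 22 were higher, with the collagen receptors Ddr2 (2.21), Itga10 (2.20) and Itga11 (1.86) in front. Of matrix breakdown genes and their inhibitors, 6 of 15 were higher, with the inhibitor Timp1 at 3.39 and the membrane protease Mmp14 at 2.18, and Mmp17 was lower (-0.61). Median log2 fold changes were 1.66, 0.56, 0.64 and 0.62 in the order given, against -0.02 over all genes.

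Choroid plexus spots, the top 2% of each section by 11 epithelial markers such as Folr1, Kl and Otx2, showed another profile. They numbered 61 and 51, with 872305 and 969314 UMIs. Of the 66 matrix genes, 27 were higher than in parenchyma, 23 by at least 2-fold, and 4 were lower (edgeR, adjusted p under 0.05), where 9.66%, 6.1% and 10.5% of all 15896 genes tested were. The median log2 fold change was 0.77 over the matrix genes and -0.05 over all genes.

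The network-forming type VIII chains led. Col8a2 was at 80.2 and 41.3 CPM in choroid plexus spots against 2.41 and 1.69 in parenchyma (log2 fold change 4.88 ± 0.31, adjusted p = 6.19e-54 by edgeR), and Col8a1 at 44.7 and 47.5 against 2.25 and 1.75 (4.57 ± 0.33). Col9a3, a chain of the fibril-associated type IX collagen, was the most counted of the genes that rose by more than 3 on the log2 scale. It was at 226 and 205 CPM against 18.0 and 18.4 (3.60 ± 0.13, adjusted p = 8.17e-161 by edgeR). For none of the 3 did choroid plexus and parenchymal values overlap. The other type IX chains did not move with Col9a3: Col9a2 was at 13.8 and 9.28 against 8.85 and 10.2 and Col9a1 at 0 and 1.03 against 0.83 and 0.873, neither called. UMIs of Col9a3 stood to those of Col9a2 in the ratio 16.4 and 22.1 in choroid plexus spots, 2.03 and 1.80 in parenchyma and 0.721 and 0.754 in leptomeningeal spots, with no overlap between the sets.

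Of the basement membrane genes, Nid2 was at 22.9 and 11.3 CPM against 1.42 and 1.4 (3.60 ± 0.47), Nid1 at 10.3 in each section against 3.02 and 2.51 (1.94 ± 0.49), Lama5 at 27.5 and 25.8 against 6.21 and 6.85 (2.06 ± 0.31) and Lamb1 at 36.7 and 35.1 against 10.2 and 12.2 (1.71 ± 0.24). The choroid plexus values of these 4 all lay above the parenchymal ones. Col18a1, the source of endostatin, was at 20.6 and 24.8 against 7.95 and 5.75 (1.79 ± 0.32). Fbln7 was at 13.8 and 14.4 against 1.53 and 1.35 (3.33 ± 0.50). Ogn (2.27), Lum (1.86), Mgp (1.53) and Col1a2 (1.39) were higher as well, while Col1a1 (0.75), Col3a1 (0.59) and Fmod (0.67) did not pass the test. The rarely counted Col6a5, Col4a4, Col14a1 and Postn were called on 61 to 127 UMIs in all. Col25a1 (-1.09 ± 0.28), Col16a1 (-0.85 ± 0.33), Vtn (-0.37 ± 0.13) and Sparc (-0.35 ± 0.08) were lower; with the set widened to the top 4% of spots the Vtn difference turned to 0.47.

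Ependymal markers were 20.8-fold and 15.8-fold higher in the choroid plexus set, with 8 of 9 called, and leptomeningeal markers 2.92-fold and 3.02-fold, with 3 of 13 called. Genes of a striatal list, scored for anatomy, were 3.95-fold and 1.30-fold higher, with 6 of 9 called. Neuronal markers were at 0.591 and 0.633 of the parenchymal level. The part of these cells in the choroid plexus values was not tested. In parenchymal spots ranked by ependymal markers alone, 0 matrix genes were called by edgeR or by DESeq2, with 6 higher and 2 lower at an unadjusted p under 0.05, and 0.187% of all genes were called in either direction. Compared only with parenchymal spots of the same cluster, 15 of 33 genes tested were higher in choroid plexus spots and 1 lower by edgeR, where 7.43% and 3.01% of all genes were. Vtn was the gene still lower (-0.60), and Sparc (-0.04), Col25a1 (-0.52) and Col16a1 (-0.85) were not called. Of the 4 lists, 8 of 26 other fibre genes were higher (Prelp 3.07, Thbs1 2.86), 6 of 20 processing genes (Pcolce 3.47, Loxl1 3.03), 9 of 22 receptors and 4 of 15 breakdown genes, with 1 lower in each of the lists of fibre, receptor and breakdown genes.

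**Figure D2:**
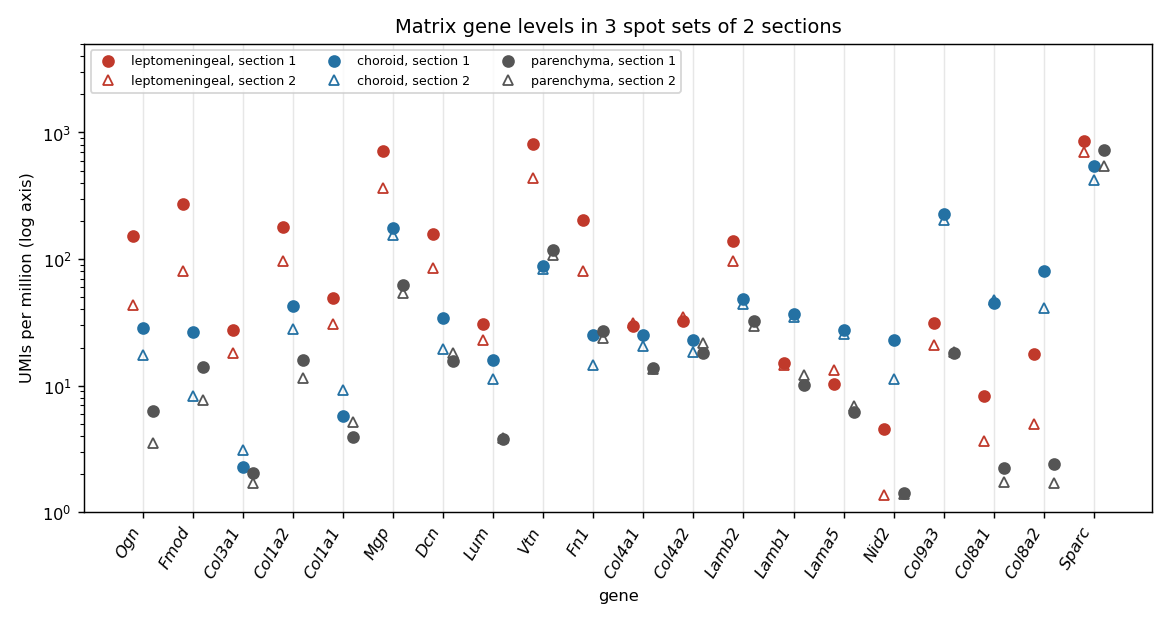
CPM (log axis) of 20 matrix genes in leptomeningeal (red), choroid plexus (blue) and parenchymal (grey) spots, with section 1 as filled circles and section 2 as open triangles. Ogn, Fmod, Col3a1 and the type I chains stand highest in leptomeningeal spots, Col8a1, Col8a2, Col9a3, Nid2, Lamb1 and Lama5 stand highest in choroid plexus spots, and Sparc lies between 425 and 857 in all of them.

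The leptomeningeal and choroid plexus sets were then compared directly over the 45 matrix genes with enough counts. Choroid plexus spots were higher for 6, namely Col9a3 (log2 fold change 3.08 ± 0.18), Col8a1 (2.93 ± 0.32), Nid2 (2.54 ± 0.46), Col8a2 (2.45 ± 0.26), Lamb1 (1.33 ± 0.25) and Lama5 (1.26 ± 0.29), by edgeR's quasi-likelihood test. They were lower for 21. Among all 11514 genes tested, 4.24% were called higher and 2.46% lower. The largest falls were those of Fmod (-3.29 ± 0.22), Lama4 (-3.01 ± 0.65), Col3a1 (-2.98 ± 0.47), Fn1 (-2.76 ± 0.23) and Vtn (-2.75 ± 0.19). Chains of 1 family shifted against each other, read only as the change of their UMI ratio between spot sets, since levels of different genes are not comparable here. Lama4, an alpha chain of vascular laminins, stood to Lama5 in the ratio 2.39 and 1.0 in leptomeningeal spots, 0.73 and 0.643 in parenchyma and 0 and 0.16 in choroid plexus spots, where Lama4 gave 0 and 4 UMIs. Nid1 stood to Nid2 in the ratio 4.63 and 8.0 in leptomeningeal spots, 2.13 and 1.78 in parenchyma and 0.45 and 0.909 in choroid plexus spots. Lamb1 stood to Lamb2 in the ratio 0.762 and 0.791 in choroid plexus spots and 0.108 and 0.151 in leptomeningeal spots. The type I chains (Col1a1 -2.32, Col1a2 -1.90) and the proteoglycans Dcn (-2.11), Ogn (-1.97) and Bgn (-1.55) were lower, and Lum was not called (-0.91, adjusted p = 0.0836 by edgeR).

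**Figure D3:**
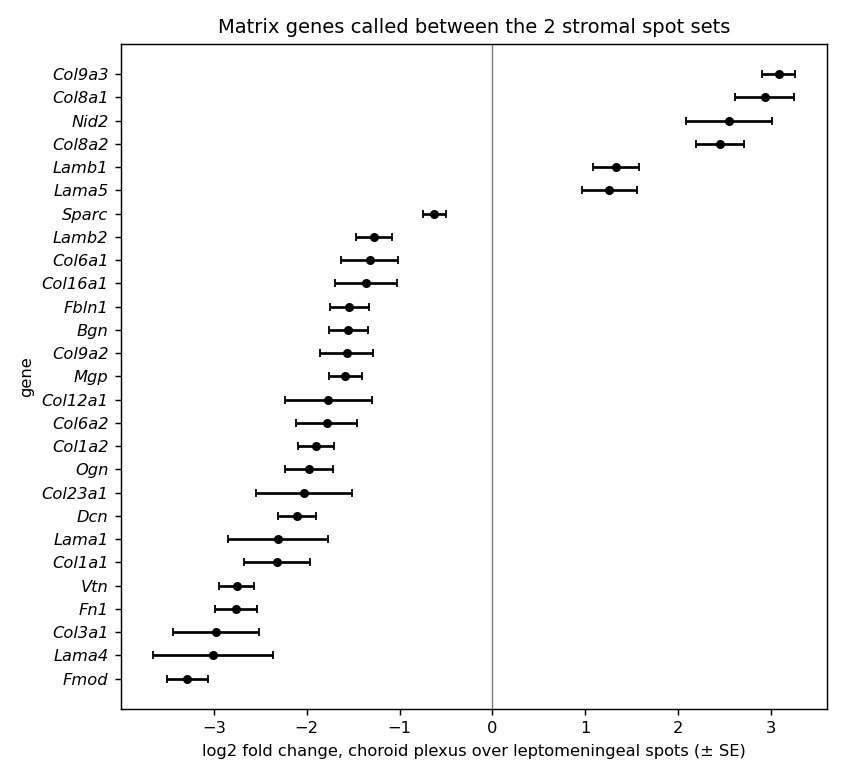
Log2 fold change of choroid plexus over leptomeningeal spots with its standard error (horizontal axis) for the 27 matrix genes called between the sets (vertical axis). The 6 genes higher in choroid plexus lie between 1.26 and 3.08, and the 21 genes lower run from Sparc at -0.63 to Fmod at -3.29.

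Vascular genes were sought within the parenchyma, where the 10% of spots that scored highest for a cell type's markers within each cluster of each section (282 and 234 spots) were compared with the rest. In arterial smooth muscle-marker spots 15 of the 66 matrix genes were higher, where 1.09% of all genes were, and 2 of these by at least 2-fold, where 0.162% were (edgeR). Mgp was at 133 and 104 CPM against 55.3 and 48.8 in the other spots (log2 fold change 1.19 ± 0.05, adjusted p = 8.15e-99 by edgeR). Col3a1 was at 4.19 and 3.82 against 1.80 and 1.47 (1.29 ± 0.29), on 22 and 19 UMIs. Col1a1 (0.92 ± 0.20) and Col1a2 (0.74 ± 0.12) were both called. Bgn was at 29.5 and 25.1 against 15.4 and 15.1 (0.84 ± 0.11), Dcn at 30.3 and 22.7 against 14.1 and 17.7 (0.75 ± 0.11) and Lama5 at 11.05 and 9.44 against 5.69 and 6.58 (0.74 ± 0.17). For all of these, as the rule for calls required, the ranked spots lay above the others in each section. Lama1 (0.95 ± 0.25), Fbln5 (0.72), an elastic fibre protein, Col18a1 (0.67), Fmod, Lamb2, Vtn, Fn1 and Sparc completed the calls.

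In endothelial-marker spots 13 were higher, where 2.59% of all genes were, and 0 of these by 2-fold, where 0.157% were (edgeR). Nid1 was at 5.33 and 4.14 CPM against 2.78 and 2.33 (0.90 ± 0.25), and Lamc3 at 5.13 and 3.94 against 2.80 and 2.16 (0.88 ± 0.25). Fn1 was at 44.9 and 32.5 against 24.98 and 22.7 (0.71 ± 0.09) and Vtn at 175 and 155 against 113 and 103 (0.62 ± 0.04). Each lay above its other spots in both sections, as the rule for calls required. Col4a1 was at 19.4 and 17.7 against 13.1 and 13.1 (0.52 ± 0.12, adjusted p = 0.0011 by edgeR). Col4a2, its partner in the type IV trimer, was at 20.9 and 21.1 against 17.7 and 21.9 and was not called (0.10); the difference between the 2 genes was not tested. Pericyte-marker spots had 5 calls, where 0.689% of all genes were called higher. Vtn, a gene that brain pericytes are known to express, was at 187 and 163 CPM against 112 and 102 (0.72 ± 0.04, adjusted p = 7.42e-58 by edgeR). Bgn (0.53), Mgp (0.39), Lamb2 (0.36) and Fn1 (0.33) were the other calls.

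These spot sets shared members and vessel cell types. Of the 516 endothelial-marker spots, 19.4% were also pericyte-marker spots and 18.8% smooth muscle-marker spots, and their leptomeningeal markers were 1.33-fold and 1.248-fold higher than in the rest. In smooth muscle-marker spots the leptomeningeal markers were 1.30-fold and 1.29-fold higher, and in pericyte-marker spots 1.31-fold and 1.02-fold. Without the parenchymal spots of the top 20% by leptomeningeal markers, 5 genes were called in smooth muscle-marker spots, 7 in endothelial and 1 in pericyte. The share of all genes called at that setting is not given, so these losses cannot be told apart from a general one. Mgp (0.85) and Bgn (0.56) kept their smooth muscle calls and Fn1 (0.70), Vtn (0.48), Mgp (0.36) and Bgn (0.43) their endothelial ones, Vtn was the pericyte call (0.61), and the calls of Col3a1 (1.01), Col1a1 (0.43), Col1a2 (0.33), Dcn (0.42), Lama1 (0.83) and Lama5 (0.37) in smooth muscle-marker spots were lost, as were those of Nid1 (0.87) and Lamc3 (0.48) in endothelial ones. Without section as a block 0 genes were called in any of the vascular comparisons.

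**Figure D4:**
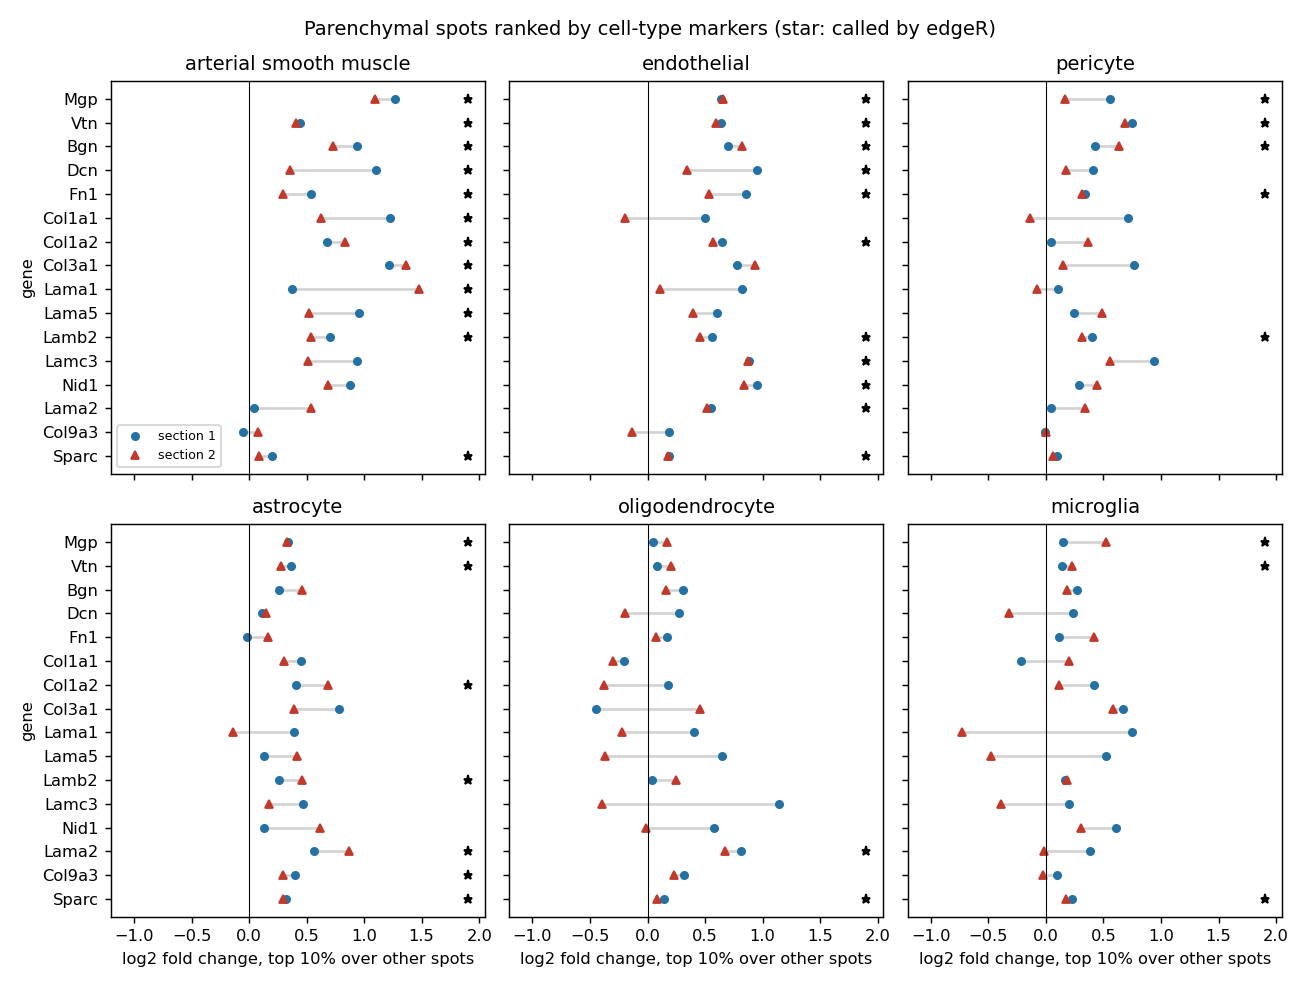
Log2 fold change of 16 matrix genes between the 10% of parenchymal spots that scored highest for a cell type's markers and the other spots, in section 1 (blue circles) and section 2 (red triangles), in 6 panels by cell type, with a star where edgeR called the gene. Mgp in smooth muscle-marker spots lies above 1 in both sections, Vtn has its largest difference in pericyte-marker spots, and Lama2 is called in endothelial, astrocyte and oligodendrocyte-marker spots.

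Glial markers went with smaller differences. In astrocyte-marker spots 7 of the 66 genes were higher, where 3.16% of all genes were (edgeR). Lama2, a laminin alpha chain known in astrocytic endfeet, was at 10.0 and 8.94 CPM against 6.92 and 4.98 (log2 fold change 0.70 ± 0.18, adjusted p = 0.0056). Sparc, which astrocytes secrete, was at 864 and 645 against 707 and 537 (0.30 ± 0.03), and this was its largest called difference among the spot sets chosen within the parenchyma. Lamb2 (0.35), Col9a3 (0.35), Col1a2 (0.53), Mgp (0.33) and Vtn (0.32) were the others. In astrocyte-marker spots leptomeningeal markers were 1.2003-fold and 1.2933-fold higher, and without the parenchymal spots of the top 20% by those markers 4 calls were left, among them Lama2 (0.77), Sparc (0.33) and Vtn (0.20). Lamb2 (0.29), Col9a3 (0.20), Col1a2 (0.42) and Mgp (0.23) were then not called.

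Oligodendrocyte-marker spots had 2 genes higher (3.03% of the matrix genes), where 4.12% of all genes were, and 1 lower (1.52% of the matrix genes), where 2.52% of all genes were. Neither share was above that of all genes. Lama2 was at 11.7 and 7.97 CPM against 6.80 and 5.09 (0.76 ± 0.17), a call that was lost without the spots near leptomeningeal markers (0.49). Sparc differed by 0.12 ± 0.03. Col23a1, a transmembrane collagen, was lower, at 2.55 and 5.76 against 5.03 and 9.20 (-0.75). Microglia-marker spots had 3 of 65 called, where 1.39% of all genes were: Mgp (0.33), Sparc (0.20) and Vtn (0.18). Spots ranked by oligodendrocyte precursor markers and by GABAergic neuron markers had 0 matrix genes called by edgeR or by DESeq2, with 2 and 1 higher at an unadjusted p under 0.05, and with 3 and 4 lower, and 0.194% and 0.165% of all genes were called in either direction there. DESeq2 left the adjusted p as NA for 63 of the 66 in the GABAergic comparison. Without section as a block, the astrocyte, oligodendrocyte and microglia comparisons had 0 genes higher.

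Regional differences were read from clusters of spots made without the matrix genes or any listed gene. In 10 clusters with at least 30 parenchymal spots in each section, each cluster was compared with the mean of the others. Of 53 matrix genes that passed the filter on low counts, 25 differed among regions, or 47.2%, where 54.5% of all 6928 genes did. In 1 or more regions 14 were higher by at least 2-fold (26.4%) and 4 lower (7.55%), where 16.3% and 4.73% of all genes were. These shares were not tested against each other. The 13 genes not tested had 58 to 336 UMIs.

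Sparc differed between regions in both directions. In section 1 it ran from 343 CPM in region 7, led by the cortical genes Vxn and Dkk3, and 365 in region 5, led by the hippocampal genes Neurod6 and C1ql2, to 1099 in region 1 (Cbln2, Dlk1) and 1346 in region 3 (Klk6, Ddc). In section 2 the same regions were at 328, 376, 939 and 874. Regions 7 and 5 were below regions 1 and 3 in each section without overlap. Log2 differences from the mean of the other regions were -1.07 ± 0.10 in region 7, -0.90 ± 0.10 in region 5, 0.72 ± 0.08 in region 1 and 0.89 ± 0.09 in region 3, all called by edgeR.

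In region 7, Col5a1 was at 10.6 and 9.47 CPM (1.28 ± 0.29) and Col12a1, a fibril-associated collagen, at 10.6 and 8.32 (1.28 ± 0.26). Each was highest in region 7 in both sections, although Col5a1 was at 9.44 in region 14 of section 2. Col11a1 (-1.05) was lower there.

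Lamb1 was high in 2 places. It was at 17.2 and 18.9 CPM in region 2, led by the thalamic gene Prkcd (1.26 ± 0.17), and at 19.99 and 15.9 in region 5 (1.22 ± 0.17), and the remaining regions lay between 1.46 and 11.8. Col25a1, whose shed ectodomain is known from amyloid plaques, was highest in region 4, led by Cartpt and Tac2, at 43.7 and 57.8 (1.19 ± 0.13, adjusted p = 4.16e-08 by edgeR), and the other regions ran from 9.47 to 28.7 in section 1 and from 14.2 to 41.9 in section 2. It was also higher in region 2 (0.65) and region 1 (0.47) and lower in regions 6, 7 and 8 (-0.63, -0.49 and -0.68). Col23a1 was called in region 4 as well (1.75), but with 4.43 CPM in section 1 it lay below region 5 at 5.39, and only in section 2 was it highest, at 11.97. Its value of 0 UMIs in region 17 of both sections enters the mean of the others, so the size of that difference rests on the prior count. The same holds for Col6a3 in region 1 (3.63 and 3.32 CPM, fitted difference 1.41), which had 0 UMIs in region 14. In section 1 Col6a3 was highest in region 4, at 4.43. Col11a1, a minor fibrillar chain, was at 11.5 and 7.44 in region 1 (1.08 ± 0.19), the highest of the 10 regions in each section. Col22a1 in region 5 was at 2.86 and 3.19 (1.02 ± 0.32), but in section 1 it was highest in region 14, at 3.48.

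Region 8 was led by Klk6, Enpp6 and Gfap, with 12 of 12 oligodendrocyte markers higher. It held 5 matrix genes higher by at least 2-fold (9.43% of those tested), where 6.05% of all genes were. Col11a2 was at 42.3 and 33.7 CPM, with the other regions between 10.3 and 27.9 (1.40 ± 0.16, adjusted p = 1.74e-08 by edgeR), and Lama2 at 20.2 and 14.7 (1.46 ± 0.29), each the highest of the 10 in both sections. Nid1 (1.30), Fbln7 (1.40) and Col2a1 (1.71) were called too, Col2a1 at 6.31 in section 1 and 1.23 in section 2. In section 2 Fbln7 was highest in region 7, at 2.15, and Col2a1 in region 14, at 2.36. Col9a3 was at 36.6 and 33.7 (0.98 ± 0.14). Bgn (0.73), Vtn (0.55), Lamb2 (0.55) and Mgp (0.49) were also higher in region 8. Leptomeningeal markers were higher there by a median log2 difference of 0.90, with 3 of 9 called, red blood cell genes by 1.23 and perivascular macrophage markers by 1.29, and the median spot held 7416.5 and 12579 UMIs, the fewest of the 10 regions in each section. Their part in the region 8 values was not tested.

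**Figure D5:**
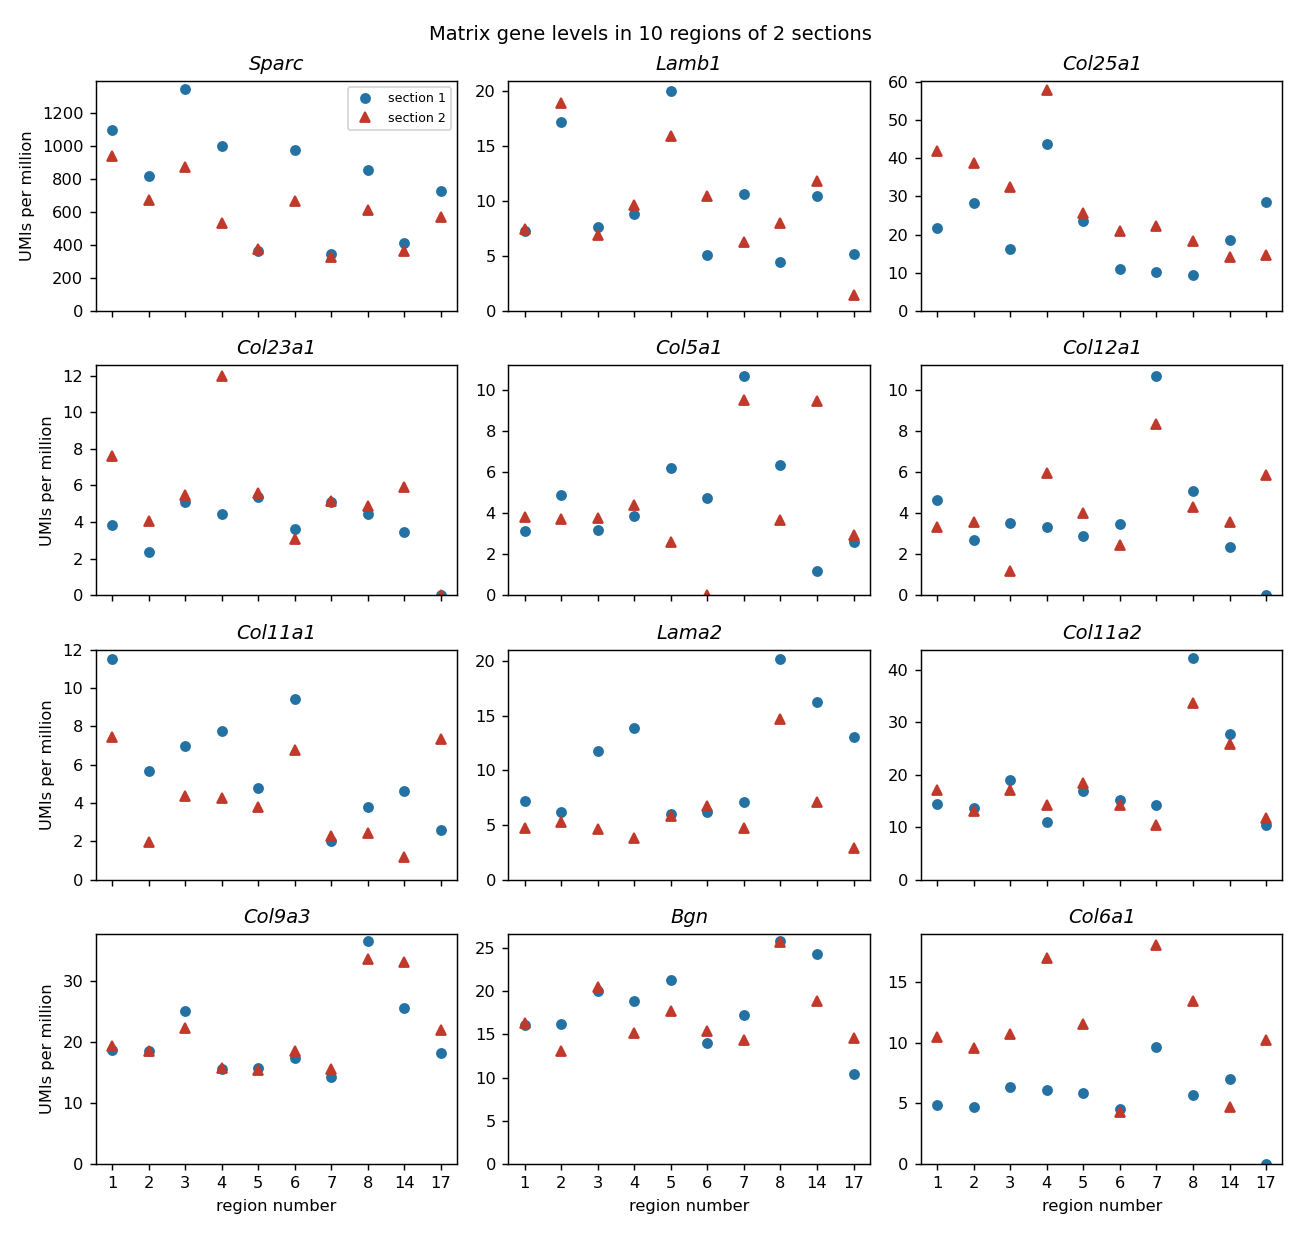
CPM of 12 matrix genes in 10 regions, numbered as in the text and shown without order, in section 1 (blue circles) and section 2 (red triangles). Sparc is lowest in regions 5, 7 and 14, Col12a1 is highest in region 7, Lamb1 in regions 2 and 5, Col25a1 in region 4, and Lama2 and Col11a2 in region 8.

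Placed by these calls, 38 of the 66 genes were meningeal (at least 2-fold higher in leptomeningeal spots), 19 vascular (higher in endothelial, pericyte or smooth muscle-marker spots), 7 glial and 23 choroid plexus (at least 2-fold). A gene could carry several terms, and the comparisons share their parenchymal spots. The vascular and glial terms pool several comparisons, and the share of all genes that would meet such pooled rules is not given. Their counts therefore do not set the matrix genes apart from other genes. Vascular and astrocyte calls were fewer without spots near leptomeningeal markers, as given above. Meningeal and vascular together were 17. Lama5 and Sparc had the vascular term and not the meningeal one, but the vascular term required no minimum fold. Both were called higher in leptomeningeal spots too, by less than 2-fold (0.82 and 0.30). Meningeal without a vascular or glial term were 21. Of these, Ogn, Lum, Fbln1, Col8a1 and Col8a2, among others, also had the choroid plexus term. Sparc, Col9a3, Col1a2, Lama2, Lamb2, Mgp and Vtn carried the glial term, and of these Col9a3 alone was neither meningeal nor vascular. Its astrocyte call (0.35) was lost without spots near leptomeningeal markers. Col9a3 was also called higher in leptomeningeal spots, by less than 2-fold (0.56), and most in choroid plexus spots (3.60). By size of the difference, leptomeningeal spots led for 35 genes, choroid plexus spots for 15 and astrocyte-marker spots for Sparc. For Sparc this was a tie within the error, at 0.305 ± 0.026 in astrocyte-marker spots and 0.303 ± 0.11 in leptomeningeal spots. The reference spots of those comparisons differed.

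The neuronal term required a call in GABAergic neuron-marker spots or at least 2-fold in a region, with no meningeal, vascular or glial term. It held 6 genes, among them Col25a1, Lamb1, Col11a1, Col22a1 and Col2a1. All 6 came from a region call, since 0 genes were called in GABAergic neuron-marker spots. A region call does not show which cells held the RNA, so expression in neurons was not tested. The share of all genes under this rule is not given. Of the 6 genes, Col2a1 was called in region 8, led by oligodendrocyte genes, and not in a region led by neuronal genes. Lamb1 was also higher in choroid plexus. In 14 genes there was no call in any spot-set comparison, and in 9 of them, Col15a1, Col19a1, Col20a1, Col24a1, Col6a4, Col7a1, Col9a1, Lama3 and Lamb3, none in a region either. These 9 had 58 to 375 UMIs over both sections, a range in which other genes were called, and the part of depth was not tested.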

How the data were processed

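The deposited files held UMI counts per gene and spot, made by the authors with Space Ranger (version 1.2.2 for section 1 and 2.0.1 for section 2 per the file headers, 2.0.1 on mm10 per the submitters' processing notes). The annotation release was not given in the sources used here. Counts of spots with at least 500 UMIs (5561 of 5700) were summed per section and spot set, since spots are not replicates, and tested with edgeR 4.0.16 (glmQLFit, glmQLFTest, TMM factors, filterByExpr, section as a block because both spot sets of a pair come from the same section). Spots were scored by the mean of log1p(UMIs per 10000) over marker lists, and the markers that define a set were left out of its adjustment. Most fits had 1 residual degree of freedom and an infinite prior, so the spread is borrowed from all genes. Within-section log2 values used a prior count of 0.5. Levels are CPM, UMIs scaled to 1000000 of the set, unadjusted for length because capture is at the 3′ end, so levels of different genes are not ranked.

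Regions were Leiden clusters (resolution 1, 2000 variable genes, 30 components, 15 neighbours) of scores centred per section, from a random part of the genes that held no listed gene. Named with values were up to 8 rising and 4 falling called genes per comparison with at least 200 UMIs, up to 3 per region, and partner chains. Other named genes were picked with their values in view. The genes and lists were chosen with earlier results of these data known. On simulated counts 89% of 2-fold and 8% of 1.25-fold changes were recovered for the leptomeningeal comparison (3% of calls false), and 91% and 45% for the endothelial one (2.86% false). These counts were drawn with 1 spread for all genes and no difference between sections. The false shares therefore do not measure how many of the real calls are false. Alternatives were DESeq2 1.42.0, no TMM, no filter, no block, other limits for spots and clusters, and each section alone. Log2 fold changes are given with their standard error. Promoter bases come from RefSeq (GRCm38.p6). The results of 1 matrix gene are counted in the totals and not reported here.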

Additional observations from a re-analysis of the deposited data

How the results depend on the processing

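The 16 counts and 64 single differences were recomputed under the alternatives that apply to each. Without the replicate block, that is without pairing spot sets by section, 24 genes were higher in leptomeningeal spots (43 with it), 0 in each of endothelial, pericyte, smooth muscle, astrocyte, oligodendrocyte and microglia-marker spots, 0 were lower in choroid plexus, 13 differed among regions and 9 were 2-fold higher in a region. DESeq2 gave 2 endothelial, 1 pericyte, 4 smooth muscle, 2 astrocyte, 0 oligodendrocyte and 1 microglia call, 3 genes higher in choroid plexus than in leptomeningeal spots and 1 lower in choroid plexus than in parenchyma; its adjusted p was NA for 64, 63, 37, 63, 51 and 64 of the genes in the first 6 of these. Over all genes DESeq2 called 28, 18, 22, 101, 219 and 25 higher in those 6 comparisons. Without spots near leptomeningeal markers there were 7 endothelial, 1 pericyte, 5 smooth muscle, 4 astrocyte, 1 microglia and 1 GABAergic call. With spots ranked over the whole parenchyma and not balanced over clusters there were 20 astrocyte, 17 oligodendrocyte, 13 microglia, 8 pericyte, 5 oligodendrocyte precursor, 2 GABAergic and 1 ependymal call. The top 20% of spots gave 8 endothelial and 4 oligodendrocyte calls, and the top 5% gave 0 oligodendrocyte calls. Omitting the TMM factors, testing genes of low count too, or a minimum of 2000 UMIs per spot each gave 1 GABAergic call, and the last gave 2 genes lower in choroid plexus, as did choroid plexus limits of 1% and 4%. At the 4% limit Vtn reversed to 0.47 in choroid plexus. Leiden resolution 2 gave 25 genes 2-fold higher in a region. Matching over clusters, added after the data were seen, gave 14 genes higher in leptomeningeal and, in choroid plexus, 15 higher and 1 lower. The causes were not tested. Shares of all genes called are not given for most of these alternatives. A change in matrix genes can then not be told apart from a change over all genes. The remaining 92 recomputed counts stayed within 1.5 times the original. Of the single differences 555 recomputed values kept direction and side of the threshold, and 105 kept direction and lost the call. With 1 section left out, 2 moved by more than the spread between sections. These were Fmod between choroid plexus and leptomeningeal spots (to -3.15) and Lamc3 in endothelial-marker spots (to 0.87). With 1 section left out a difference has no test and no count could be given; Ogn in leptomeningeal spots was then 3.63 and 4.60. Genes with few UMIs limit the depth: 13 of 66 were not tested among regions.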

Other observations

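Clusters with too few parenchymal spots in 1 section were not tested, and some held high levels of single genes. In section 1 a cluster of 69 parenchymal spots led by Pcp2 and Car8 had Col18a1 at 70.2 CPM, where all other clusters of that section were at 0 to 11.6. A cluster led by Trhr and Npy2r in section 1 and by Trh and Cpne7 in section 2 (23 and 198 spots) had Dcn at 33.0 and 57.2, Col23a1 at 34.3 and 26.4 and Col6a1 at 20.3 and 34.5. A small cluster led by the dentate gyrus genes Dsp and Lct (26 and 22 spots) had Lamb1 at 24.0 and 31.5 and Col22a1 at 9.84 and 9.0, where region 5 was at 2.86 and 3.19 of Col22a1.

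Lamb3, a laminin chain known from skin, differed among the tested regions (adjusted p = 0.0013 by edgeR) without being called in any of them. It gave 1 UMI in region 4 of section 1 and 77 in region 4 of section 2 (0.554 and 8.61 CPM), from 133 and 344 spots, and its parenchymal level was 1.07 in section 1 and 3.68 in section 2.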
